A study of Mus musculus with 10 samples.

Results

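Sugar and monocarboxylate transporters of the kidney were examined in mice with and without a working Ehhadh gene. The 9 genes were taken by name from a count table of 24062 genes. All 9 were present, and all 9 were among the 15547 genes that passed the filter on low counts. They encode 5 sodium-coupled carriers (Slc5a1, Slc5a2, Slc5a8, Slc5a10 and Slc5a12) and 4 facilitative carriers (Slc2a1, Slc2a2, Slc2a5 and Slc2a9). Polyadenylated RNA of kidney was sequenced from adult male mice in 10 libraries. Of these, 4 came from C57BL/6N animals labelled ko for Ehhadh (KO) and 4 from C57BL/6N animals labelled wt (WT). The remaining 2 came from single wild-type animals of the strains DBA_2J and 129S2_SvPasCrl. Ehhadh encodes a peroxisomal enzyme of fatty acid β-oxidation. The labels do not describe the Ehhadh allele or say whether animals of a group were littermates.

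The proximal tubule recovers nearly all filtered glucose. SGLT2 (Slc5a2) takes up the bulk of it in the early segments, SGLT1 (Slc5a1) takes up the remainder further down, and GLUT2 (Slc2a2) and GLUT1 (Slc2a1) pass it across the basolateral membrane to the blood. SMCT1 (Slc5a8) and SMCT2 (Slc5a12) bring lactate, pyruvate and other small monocarboxylates into the cell with sodium. SGLT5 (Slc5a10) carries mannose and fructose, GLUT5 (Slc2a5) carries fructose, and GLUT9 (Slc2a9) carries urate in spite of its name as a glucose transporter.

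Library totals ran from 19.79 to 35.99 M counts in WT and from 41.49 to 52.3 M in KO, so KO libraries were deeper. Ehhadh, the targeted gene, read 176 to 331 counts per M of the scaled library total (CPM) in KO and 2100 to 3439 in WT, and no KO library reached a WT one. Every transporter was well covered, from 518 counts for Slc2a9 to 27807 for Slc5a10 in a single C57BL/6N library. Markers of the early proximal tubule summed to 13352 to 14098 CPM in WT, and the phosphate transporter gene Slc34a1 alone read 5607 ± 307 CPM in WT (SD, n = 4), so the defining genes of kidney were present. In bulk kidney RNA, fewer cells of a type and less RNA per cell cannot be told apart.

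Promoter sequence was looked up for the genes in RefSeq (GRCm38.p6), where 7 of the 9 matched, with 8 starts. Shown here, 5′ to 3′ on the gene's own strand, are the 250 bases before the start of Slc2a2, the only transporter called between genotypes, and of the upstream start of Slc5a10, the only window with a match. The capitals mark GTTAAT on the opposite strand, a 6-base core of the site read by HNF1, a transcription factor of proximal tubule cells.
Slc2a2 (chr3:28697653-28697902, plus strand): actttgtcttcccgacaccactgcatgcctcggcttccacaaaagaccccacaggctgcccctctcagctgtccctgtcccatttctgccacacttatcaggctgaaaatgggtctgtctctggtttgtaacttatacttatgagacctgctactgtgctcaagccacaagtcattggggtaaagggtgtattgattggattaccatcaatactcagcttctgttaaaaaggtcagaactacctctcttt
Slc5a10 (chr11:61720800-61721049, minus strand): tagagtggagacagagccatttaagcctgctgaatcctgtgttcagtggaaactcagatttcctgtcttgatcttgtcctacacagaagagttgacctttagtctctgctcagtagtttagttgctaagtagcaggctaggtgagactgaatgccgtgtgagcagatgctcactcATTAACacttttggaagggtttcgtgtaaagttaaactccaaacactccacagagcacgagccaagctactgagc
GTTAAT and CAAAGTCCA (a site of HNF4A, another factor of these cells) were searched on both strands of windows of 300 bases, 250 before and 50 after each start. GTTAAT lay in 1 of the 8 windows of the transporters, 75 bases before the start of Slc5a10, and in 7.10% of all 32851 windows. CAAAGTCCA lay in none of the 8 and in 0.475% of all. A match here is a description of letters and not a measured binding site.

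Levels were first compared between genes in WT kidney, per kilobase of exon (RPKM), because the exons of the genes differ in length from 2259 bases for Slc5a2 to 5331 for Slc5a8. The sodium-coupled sugar carriers Slc5a2 (239 ± 12.2 RPKM) and Slc5a10 (194 ± 13.9 RPKM) stood highest (SD, n = 4). Slc2a2 (63.7 ± 2.42 RPKM), Slc5a8 (55.1 ± 4.16 RPKM), Slc5a12 (44.3 ± 6.44 RPKM) and Slc2a5 (34.4 ± 8.10 RPKM) followed. Slc5a1 (19.8 ± 4.02 RPKM) and Slc2a1 (18.9 ± 1.56 RPKM) were lower still, and Slc2a9 was lowest at 6.67 ± 0.717 RPKM. In this order 2 pairs of neighbours overlapped in their WT ranges, Slc5a12 with Slc2a5 and Slc5a1 with Slc2a1. Every other pair of neighbours was ordered the same way in all 4 WT libraries. In KO kidney Slc5a12 stood above Slc5a8 and Slc5a1 above Slc2a5 in 4 of 4 libraries each, the reverse of the WT order, while Slc5a2 exceeded Slc5a10 in 2 of 4.

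The exons of 2 genes overlap those of a gene on the other strand, and the reads were counted without regard to strand. Slc5a2 shares 600 of its 2259 exon bases with BC017158, which read 243 CPM in WT and 206 CPM in KO and was itself called lower (log2 fold change −0.24, adjusted p = 0.0234 in edgeR). Slc5a10 shares 393 of 2261 with Fam83g, which read 117 CPM in WT and 141 CPM in KO and was not called. The levels of Slc5a2 and Slc5a10 therefore hold an unknown number of reads from these neighbours.

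The main comparison set KO against WT. Of the 9 transporters 1 was called higher in KO, Slc2a2, none was called lower and 8 did not pass (edgeR quasi-likelihood test, Benjamini-Hochberg adjusted p under 0.05 over 15547 genes). Calls were made for 11% of the tested genes, with 6.32% higher and 4.68% lower, so 1 in 9 is near the background. That was 982 genes higher and 728 lower, a split that upper-quartile scaling turned to 832 higher and 938 lower. DESeq2, run as an alternative, called 3 of the 9 higher, Slc2a2, Slc5a1 and Slc5a12. It called more genes over the whole table as well, with 1290 of 15971 higher and 1054 lower. The median log2 fold change of the transporters was −0.09, against −0.0057 over all tested genes. Estimates ran from −0.64 for Slc2a5 to 0.48 for Slc5a1, a 1.56-fold lower and a 1.39-fold higher level.

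**Figure D1:**
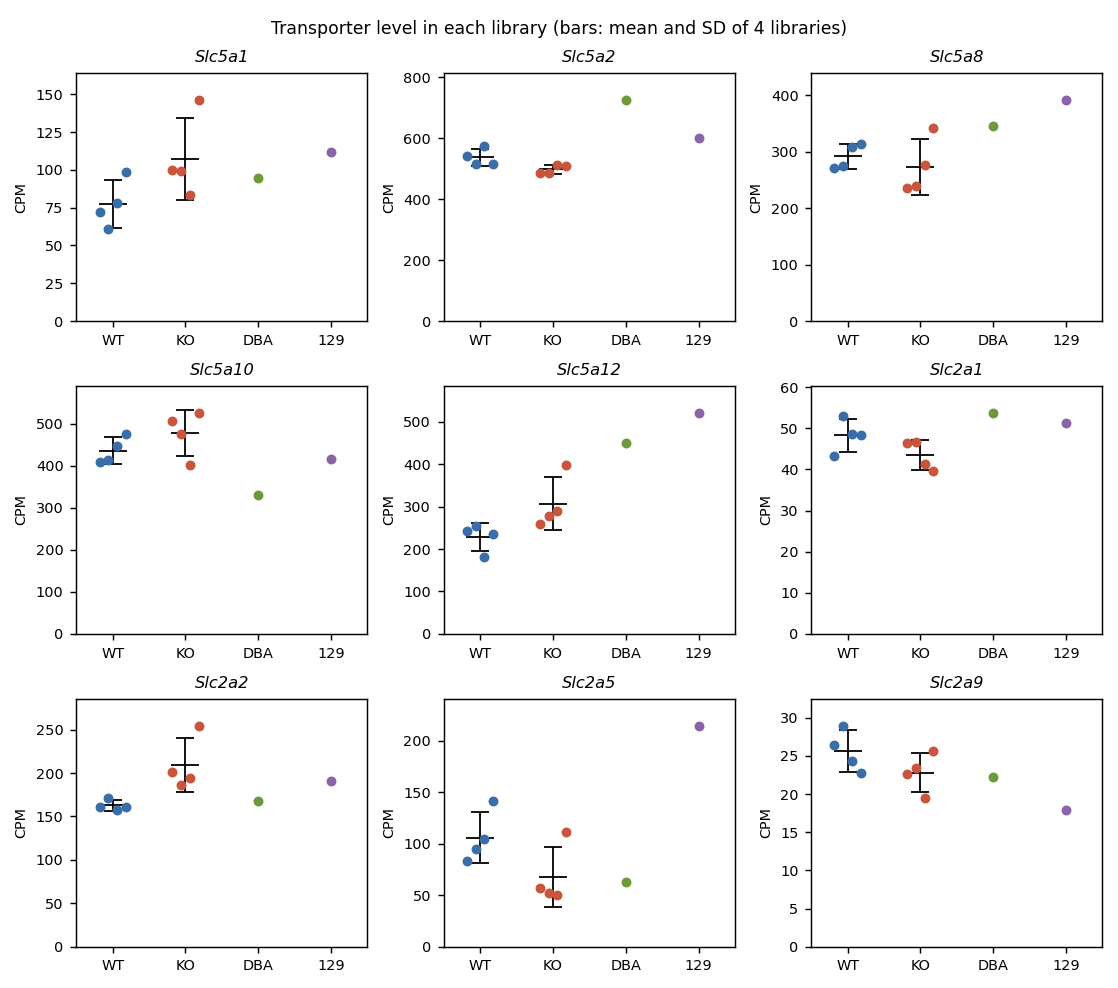
Level of each transporter in CPM (vertical axes from 0, scaled over all 10 libraries) for the 4 WT, 4 KO, 1 DBA_2J (DBA) and 1 129S2_SvPasCrl (129) libraries. Points are libraries, in replicate order within a group, and bars are mean and SD of 4 libraries. KO lies above WT without overlap for Slc2a2 and Slc5a12 (as in 9.77% of tested genes) and below it for Slc5a2 (7.95%).

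Among the basolateral glucose carriers, Slc2a2 (chromosome 3, 28697903 to 28728360, plus strand, mm10; 11 exons) rose 1.29-fold in KO. Its 4 KO libraries read 204, 188, 196 and 256 CPM and its 4 WT libraries 162, 173, 158 and 162 CPM. All 4 KO libraries lay above all 4 WT libraries, as in 9.77% of tested genes, and KO replicate 4 was the highest. The KO mean was 211 ± 30.9 CPM and the WT mean 164 ± 6.21 CPM (SD, n = 4 each), a log2 fold change of 0.37 (SE 0.09; 95% interval 0.17 to 0.56; edgeR adjusted p = 0.0262). The call was lost when KO replicate 1 (adjusted p = 0.0531 in edgeR), WT replicate 1 (0.0610), WT replicate 3 (0.0710) or WT replicate 4 (0.0543) was left out, with log2 fold changes of 0.35 to 0.38 in those fits.

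Slc2a1 (chromosome 4, 119108745 to 119137329, plus strand; 10 exons), the carrier of later and more glycolytic segments, was not called. It read 47.1, 47.2, 41.7 and 39.8 CPM in KO and 43.5, 53.4, 48.8 and 48.8 in WT, and the groups overlapped. The log2 fold change was −0.15 (SE 0.08; 95% interval −0.32 to 0.03; edgeR adjusted p = 0.270).

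Of the apical glucose carriers, Slc5a2 (chromosome 7, 128265697 to 128272433, plus strand; 14 exons) was not called. KO libraries read 493, 491, 514 and 512 CPM and WT libraries 544, 520.4, 578 and 519.8 CPM. All KO libraries lay under all WT libraries, which 7.95% of tested genes also did, but by little (503 ± 12.2 against 541 ± 27.6 CPM, SD, n = 4 each). The difference did not pass (log2 fold change −0.11, SE 0.06; edgeR adjusted p = 0.265), and its 95% interval allowed a KO level of 0.854 to 1.01 times that of WT.

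Slc5a1 (chromosome 5, 33104219 to 33162699, plus strand; 15 exons), the high-affinity carrier of the late proximal tubule, read 101, 101, 83.9 and 147 CPM in KO and 72.5, 61.2, 78.7 and 98.9 CPM in WT. In KO, 3 of 4 libraries lay above every WT library, and KO replicate 3 lay under WT replicate 4. The log2 fold change was 0.48 (SE 0.17; 95% interval 0.10 to 0.86) and did not pass (unadjusted p = 0.0185, adjusted p = 0.104 in edgeR). It passed when WT replicate 4 was left out (0.62, adjusted p = 0.0465 in edgeR). Without KO replicate 4, the highest library, it was 0.29 (adjusted p = 0.213 in edgeR).

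Markers of the tubule moved beside these carriers. Of 6 late proximal tubule markers 1 was called lower in KO, Slc7a13, an amino acid transporter of that segment (log2 fold change −1.01, SE 0.13). Their summed level was 643 to 774 CPM in KO and 901 to 1263 in WT. Most of that gap lay in Slc7a13 itself (275 ± 26.6 CPM in KO, 556 ± 122 in WT), and the other 5 were not called. Of 10 early proximal tubule markers 1 was called higher and 3 lower, and their sum was 11483 to 13894 CPM in KO. Of 6 markers of injured tubule 5 were called higher, among them Havcr1, a gene of injured tubule cells (4.60, SE 0.33), and their sum was 756 to 1444 CPM in KO and 505 to 638 in WT. KO replicate 4 had the highest sum of injury markers, 1444 CPM, and was also the highest KO library for 7 of the 9 transporters. No marker in these lists was at 0 in all 8 libraries. The part of segment make-up and injury in the transporter values was not tested.

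**Figure D2:**
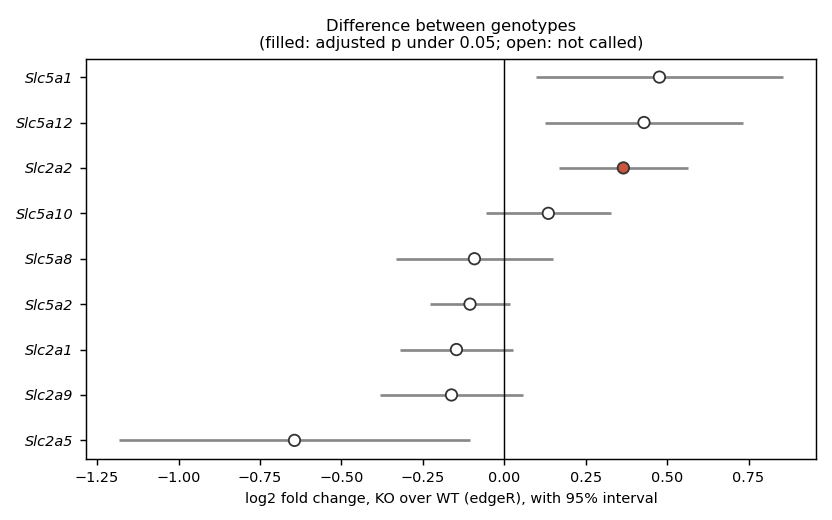
Log2 fold change of each transporter (KO over WT, edgeR; horizontal axis) with its 95% interval, ordered by size. Slc2a2 alone passed the adjusted threshold (filled point), at 0.37; the widest interval belongs to Slc2a5, from −1.18 to −0.11.

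The sodium-coupled monocarboxylate carriers came next. Slc5a12 (chromosome 2, 110597299 to 110649345, plus strand; 16 exons), which carries lactate with low affinity in the early tubule, read 263, 282, 291 and 401 CPM in KO and 244, 257, 181 and 237 in WT. Every KO library lay above every WT library, as in 9.77% of tested genes with KO on the higher side. The log2 fold change of 0.43 (SE 0.14; 95% interval 0.13 to 0.73) did not pass over all genes (adjusted p = 0.0715 in edgeR). Without KO replicate 4, its highest library, the value was 0.28 (adjusted p = 0.124 in edgeR). Slc5a8 (chromosome 10, 88885992 to 88929515, plus strand; 15 exons), the high-affinity form of later segments, read 239, 242, 277 and 345 CPM in KO and 273, 277, 309 and 316 in WT. KO libraries lay on both sides of the WT range, and the log2 fold change was −0.09 (SE 0.11; 95% interval −0.33 to 0.15; edgeR adjusted p = 0.657).

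The genes of fructose, mannose and urate transport showed no called difference. Slc2a5 (chromosome 4, 150119344 to 150144168, plus strand; 14 exons) read 57.6, 52.5, 50.8 and 112 CPM in KO and 83.5, 95.8, 105 and 142 in WT. In KO, 3 of 4 libraries lay under all WT libraries and KO replicate 4 lay among them. Its log2 fold change, −0.64 (SE 0.25; 95% interval −1.18 to −0.11), was the largest in size of the 9 and did not pass (adjusted p = 0.120 in edgeR). Without KO replicate 4 it was −0.99 and passed (adjusted p = 0.00264 in edgeR), so that library decides the call.

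Slc5a10 (chromosome 11, 61672782 to 61720799, minus strand; 16 exons) read 513, 482, 405 and 530.1 CPM in KO and 411, 417, 449.5 and 479 in WT. KO replicate 3 was under and the other 3 KO libraries were above the WT range, and the log2 fold change was 0.14 (SE 0.09; 95% interval −0.06 to 0.33; edgeR adjusted p = 0.364). Slc2a9 (chromosome 5, 38349273 to 38502152, minus strand; 14 exons) read 22.9, 23.7, 19.6 and 25.9 CPM in KO and 26.6, 29.2, 24.5 and 22.8 in WT. The groups overlapped in 3 of 4 KO libraries, and the log2 fold change was −0.16 (SE 0.10; 95% interval −0.38 to 0.06; edgeR adjusted p = 0.341).

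Some sample titles begin with the letter E (2 KO and 2 WT libraries) and the others do not (again 2 and 2), and nothing in the labels gives the meaning of this. The difference in Slc5a12 was 0.73 among titles with an E and 0.12 among those without (log2 fold change, 2 against 2). For Slc2a2 these values were 0.50 and 0.23, for Slc5a1 0.38 and 0.60, and for Slc2a5 −0.60 and −0.71. The interaction of form and genotype was tested only in edgeR and called for none of the 15547 genes, of which 1004 had an unadjusted p under 0.05, and Slc5a12 had the smallest p of the 9 (unadjusted p = 0.0201, adjusted p = 0.714). Among titles without an E, Slc5a1 and Slc5a10 were called higher and Slc2a5 lower in KO, and among titles with an E none of the 9 was called. Over all genes, 924 were called higher and 799 lower of 15540 without an E, against 92 and 51 of 15792 with an E.

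Pairs of carriers were then set against each other within each library, which needs no scaling between libraries. The pairs were a bulk and a high-affinity form at the apical membrane (Slc5a2 to Slc5a1, Slc5a12 to Slc5a8) and the basolateral pair (Slc2a2 to Slc2a1), as ratios of counts per kilobase. The ratio of Slc2a2 to Slc2a1 was 4.33, 3.99, 4.70 and 6.44 in KO and 3.72, 3.24, 3.25 and 3.33 in WT. That of Slc5a12 to Slc5a8 was 1.13, 1.20, 1.08 and 1.19 in KO and 0.920, 0.954, 0.601 and 0.769 in WT. In both, all 4 KO libraries lay above all 4 WT libraries.

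The ratio of Slc2a2 to Slc2a1 was 1.41-fold higher in KO and that of Slc5a12 to Slc5a8 1.44-fold higher. Each had an exact two-sided permutation p of 0.0286, the smallest that 4 against 4 allow (0.0429 adjusted over the 3 ratios). Slc2a2 and Slc5a12 were already separated in this way on their own, as 9.77% of tested genes were. The pairs were also chosen with earlier results of these data known, so these p-values are no support separate from the single genes. Since KO and WT did not overlap in either, leaving out any 1 library could neither reverse the direction of both ratios nor bring an overlap. In such fits of 7 libraries the exact permutation p was 0.0286 or 0.0571 (0.0571 or 0.0857 adjusted). Each was the p that those 7 ratios give once KO lies wholly above WT. The smallest that 3 against 4 allow is 0.0286. Neither passing nor missing the threshold there therefore bears on stability. The ratio of Slc5a2 to Slc5a1 was 8.46, 8.51, 10.7 and 6.06 in KO and 13.1, 14.8, 12.8 and 9.15 in WT. It was 1.49-fold lower in KO on average, with KO replicate 3 inside the WT range, and did not pass (exact permutation p = 0.0571, adjusted 0.0571). SMCT2 RNA was thus below SMCT1 RNA per kilobase in every WT library and above it in every KO library.

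**Figure D3:**
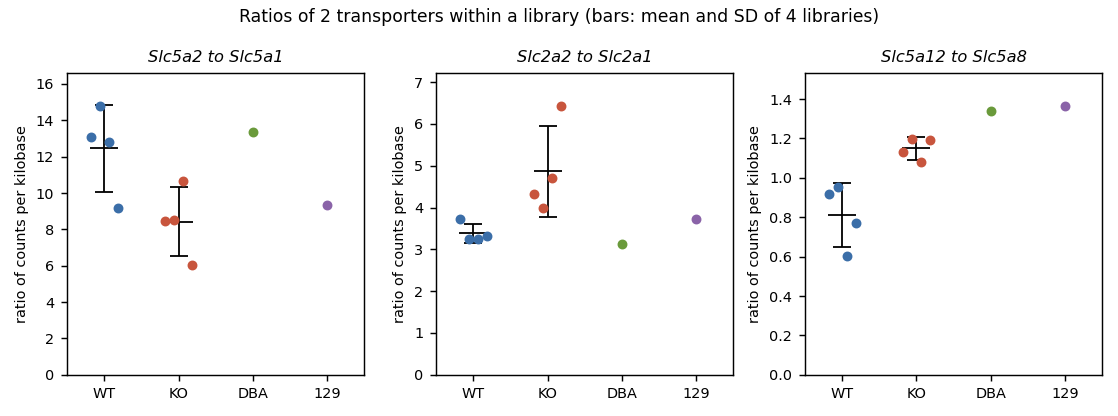
Ratio of counts per kilobase of 2 transporters within each library (vertical axes from 0) for WT, KO, DBA_2J (DBA) and 129S2_SvPasCrl (129) libraries. Points are libraries and bars are mean and SD of 4; the ratio of Slc5a12 to Slc5a8 was 0.811 ± 0.161 in WT and 1.15 ± 0.0573 in KO, and 1.34 and 1.37 in the single libraries of the other strains.

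Variation within a genotype differed between transporters. In WT the coefficient of variation of the CPM was 3.79% for Slc2a2 and 5.10% for Slc5a2, against 20.3% for Slc5a1 and 23.5% for Slc2a5. In KO it was 14.6% for Slc2a2, 2.42% for Slc5a2, 25.2% for Slc5a1 and 43.0% for Slc2a5. After removal of the group means, the log2 levels of Slc5a1 and Slc2a5 moved together over the 8 libraries (Pearson r = 0.90), as did those of Slc5a8 and Slc2a5 (0.86). Slc5a12 and Slc2a2 had an r of 0.80 and Slc5a8 and Slc2a1 one of −0.57. These correlations describe 8 libraries that share scaling, and KO replicate 4 is high in most of the genes concerned.

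Over all 10 libraries, the genes closest in pattern to each transporter were found by the Pearson r of log2 CPM among 9803 genes of 10 CPM or more, 2 per transporter. For Slc2a2 they were Sytl2 (r = 0.96) and Myo7b (0.94), the latter a brush border myosin that was itself called higher in KO (log2 fold change 0.33, adjusted p = 0.0207 in edgeR). For Slc5a2 they were Rnf121 and Cyp51 (both 0.98), the latter a cholesterol synthesis enzyme, called lower in KO, that read 181 CPM in WT, 131 in KO, 339 in 129S2_SvPasCrl and 606 in DBA_2J. For Slc5a8 they were Per3, a circadian clock gene (0.97), and Ift122 (0.97). For Slc5a12 they were Mrps31 and Homer1 (both 0.96), for Slc5a1 Taf1 (0.95) and Auts2 (0.93), and for Slc2a5 Ift172 (0.95) and Ankrd24 (0.94). For Slc5a10 they were Ephx1 and 1700088E04Rik (both 0.92), for Slc2a1 Zc2hc1c (0.95) and Ccdc51 (0.91), and for Slc2a9 Vps39 (0.92) and Ppil2 (0.91). With 10 points per gene and the highest r taken of 9803, these are likenesses of pattern and no more.

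Genes that share substrates or partners with the 9 transporters were read from the same fit. Over 6 lists with 65 tested genes, none was called higher in KO and 12 were called lower (edgeR, adjusted p under 0.05), against the 6.32% and 4.68% given above. Among proton-coupled and related monocarboxylate carriers, 3 of 16 were called lower and none higher, with a median log2 fold change of −0.09. They were Slc16a4 (44.3 ± 2.77 CPM in KO, 66.6 ± 3.66 in WT; log2 fold change −0.59, SE 0.06), Slc16a7, the high-affinity pyruvate carrier MCT2 (26.4 ± 2.59 against 38.3 ± 2.52 CPM; −0.54, SE 0.08), and Emb, embigin, a chaperone that brings MCT2 to the membrane (−0.36, SE 0.07). These 3 were called whichever library was left out. Slc16a1, the lactate carrier MCT1, did not pass, at 117 ± 40.3 CPM in KO against 105 ± 42.9 CPM in WT.

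Among other facilitative sugar carriers 2 of 10 tested were called lower, with a median of −0.25. Slc2a12, a glucose carrier, read 7.07 ± 0.601 CPM in KO and 9.56 ± 0.544 in WT (−0.43, SE 0.10), a call that was lost when KO replicate 1, WT replicate 1 or WT replicate 2 was left out (largest adjusted p = 0.0620 in edgeR). Slc45a4 had a log2 fold change of −0.30 (SE 0.08), a call kept in 1 of 8 fits with a library left out (without WT replicate 3). Of the other Slc5 cotransporters, 5 were tested and none was called; Slc5a11, a carrier of inositol and glucose, came nearest (0.25, SE 0.08; edgeR adjusted p = 0.0736, and 0.0482 without KO replicate 1).

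Genes of sugar and lactate metabolism had 3 of 16 called lower, with a median of −0.15. Khk, ketohexokinase, which takes fructose into metabolism, read 636 ± 44.9 CPM in KO and 891 ± 124 in WT (−0.49, SE 0.10) and was called whichever library was left out. Hk1, a hexokinase (−0.36, SE 0.09), was called in 3 of 8 and Ldhd, the D-lactate dehydrogenase (−0.22, SE 0.06), in 1 of 8 fits with a library left out (without KO replicates 3 or 4 or WT replicate 2 for Hk1, and without WT replicate 4 for Ldhd).

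Genes of urate handling had 4 of 9 tested called lower, with a median of −0.09. They were the urate and anion carriers Slc22a13 (−0.51, SE 0.09), Slc17a3 (−0.50, SE 0.11), Slc22a8 (−0.44, SE 0.07) and Slc17a1 (−0.23, SE 0.05), the last of which was not called with KO replicate 1 left out (edgeR adjusted p = 0.0504). Slc22a12, the urate exchanger URAT1, did not pass, at 3097 ± 232 CPM in KO against 3080 ± 61.2 CPM in WT, like Slc2a9 above.

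Scaffolds and transcription factors of the proximal tubule had none of 9 called, with a median of −0.07. Pdzk1ip1, which encodes MAP17, the partner protein of SGLT2, read 604 ± 21.5 CPM in KO and 633 ± 30.2 in WT. Sgk1, a kinase gene that responds to steroids, had the smallest p of this list (0.57, SE 0.30; edgeR adjusted p = 0.262). Its value was 0.33 without WT replicate 3, and it was called among titles without an E (0.66, adjusted p = 0.00014 in edgeR). Among markers of other cell types, those called lower were 4 of 4 of principal cells (summed level 249.6 to 280.4 CPM in KO, 359.6 to 676 in WT) and 3 of 4 of intercalated cells (153 to 194 against 226 to 285 CPM). Fewer were called lower among those of the thick ascending limb (2 of 4), distal convoluted tubule (2 of 3), endothelium, stroma and macrophages (1 of 4 each). None was called among those of podocytes (4 tested, median log2 fold change 0.18), T cells, erythroid cells and fat (3 tested each), and none in these lists was called higher. Of all tested genes 4.68% were called lower. The part of these cell types in the lists was not tested.

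**Figure D4:**
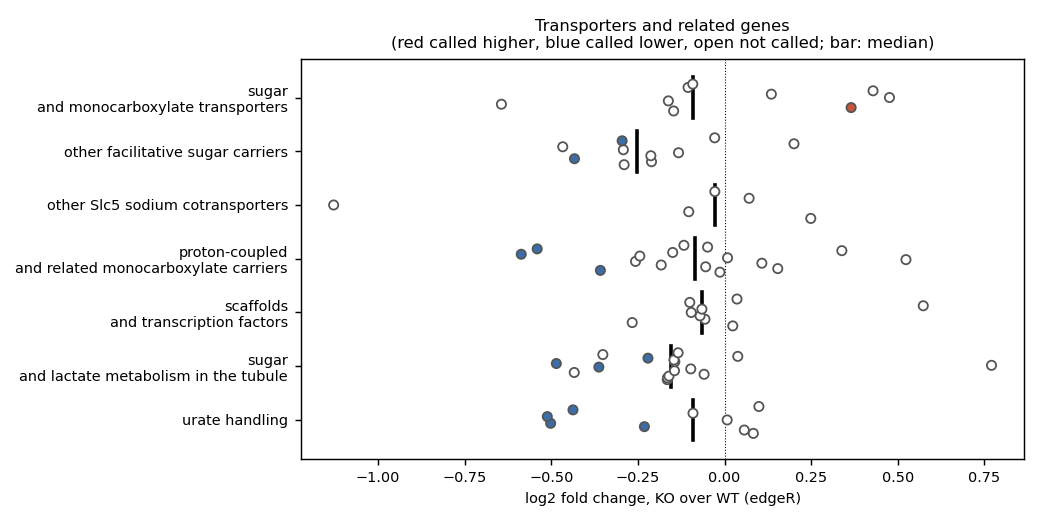
Log2 fold change (KO over WT, edgeR; horizontal axis) of each tested gene in the 9 transporters and the 6 lists of related genes, with the median of each list as a bar. Red points were called higher, blue lower and open ones not called; the only red point is Slc2a2 and the 12 blue points are all in the lists of related genes.

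The last comparison set the single libraries of the other strains beside WT C57BL/6N, scaled over all 10 libraries. Ehhadh itself read 788 CPM in 129S2_SvPasCrl and 796 CPM in DBA_2J, under every WT and above every KO library. There is 1 animal per strain, so no difference has a replicate check, and reads of all strains were counted on the mm10 reference. In 129S2_SvPasCrl 6 of the 9 transporters lay above the range of the 4 WT libraries and 1 below it, where 32.5% and 32.1% of all tested genes did. In DBA_2J 4 lay above and 3 below, where 35.1% and 37.3% of tested genes did.

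Slc5a12 read 522 CPM in 129S2_SvPasCrl and 449 CPM in DBA_2J, against 228 ± 33.1 CPM in WT (SD, n = 4) and a highest WT library of 255. This was 2.30-fold and 1.98-fold the WT level, and both libraries also lay above the highest KO library, 398 CPM. A level 1.5-fold or more above WT and outside its range was seen in 8.96% of tested genes in 129S2_SvPasCrl and in 11.2% in DBA_2J. The gap between the strains and WT was thus wider than that between KO and WT for this gene.

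Slc2a5 went in opposite directions in the strains. It read 215 CPM in 129S2_SvPasCrl, 2.06-fold the WT level (mean 106 CPM, range 83.0 to 141), and 62.9 CPM in DBA_2J, 1.65-fold lower than WT and inside the KO range of 50.5 to 111 CPM. A level 1.5-fold or more lower and under the WT range was seen in 11.2% of tested genes in 129S2_SvPasCrl and in 16.6% in DBA_2J. The other transporters stayed within 1.5-fold of WT in both strains. Slc5a2 read 726 CPM in DBA_2J and 602 in 129S2_SvPasCrl, both above the highest WT library (575 CPM), and Slc5a10 read 330 CPM in DBA_2J, under the lowest WT library (409 CPM). Slc2a9 was lowest in 129S2_SvPasCrl, at 17.9 CPM against 25.6 ± 2.72 in WT.

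Slc2a2, the gene called between genotypes, read 191 CPM in 129S2_SvPasCrl, inside the KO range (186 to 255 CPM), and 168 CPM in DBA_2J, inside the WT range (157 to 171 CPM). Late proximal tubule markers summed to 2037 CPM in 129S2_SvPasCrl and 2552 CPM in DBA_2J, above all C57BL/6N libraries, and those of the early tubule to 14776 and 14343 CPM. The part of these in the strain values was not tested.

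**Figure D5:**
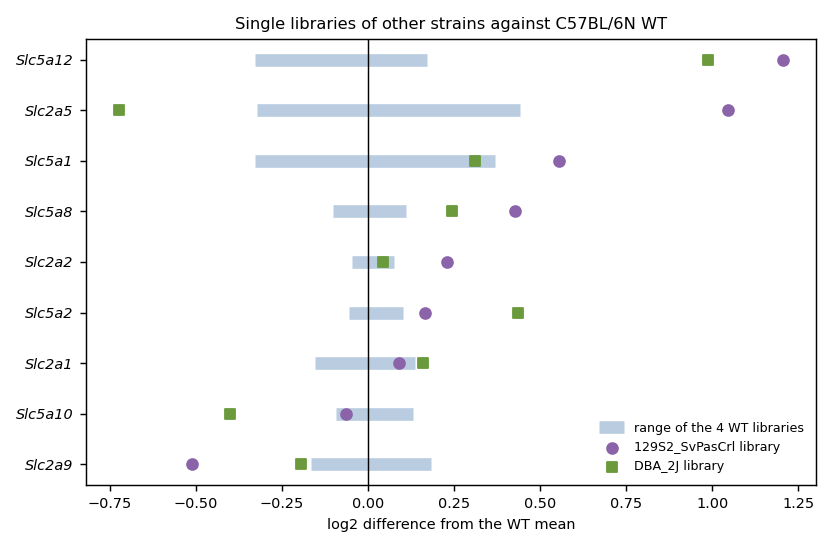
Log2 difference from the WT mean (horizontal axis) of each transporter in the single 129S2_SvPasCrl library (circles) and the single DBA_2J library (squares). Blue bars span the 4 WT libraries; Slc5a12 lies far above them in both strains (1.20 and 0.99), and Slc2a5 lies above in 129S2_SvPasCrl (1.05) and below in DBA_2J (−0.72).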

How the data were processed

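Per the submitters' processing notes, STAR, featureCounts and edgeR and the build mm10 (GRCm38) were used. Per the file headers, version 1.5.2 of featureCounts was run on primary alignments and the UCSC mm10 exons, without a strand option, and a read that overlapped several genes went to each of them. The authors deposited raw counts per library and as a matrix, equal in all 10 columns, and a table of log2 values of 13645 genes that equalled voom's log2 CPM within 4.97e-14 and was used only for that check. Exon lengths came from the deposited count tables.

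The transporters, lists and tests were chosen with earlier results of these data known. Groups came from the labels. Replicate numbers are only names, given in accession order. The labels call each library a separate sample and do not tell how the animals were related. The p-values of edgeR judge the genotype difference against the spread of these samples within a genotype. Whether that spread holds for unrelated animals is not known. Replicates all differed beyond counting noise (smallest chi-square over its degrees of freedom 10.99). For KO against WT the 8 C57BL/6N columns went into edgeR (version 4.0.16 under R 4.3.3): filterByExpr first, TMM next, then a quasi-likelihood F test with genotype as the one term, adjusted over 15547 genes. The script was tested on simulated data, where it called 77 of 100 changes of log2 1 and 52 of 100 of log2 0.5. Many changes of the size seen in the transporters would thus be missed. The standard error is the log2 fold change over the square root of F, and intervals are unadjusted. CPM is scaled by TMM over the 8 libraries, or over all 10 where strains are shown, which gives slightly different values. Ratios were tested by exact permutation over libraries. Alternatives used DESeq2 1.42.0, limma 3.58.1, other scalings, no filter, thinning to 19.79 M counts, title form as a term or as a subset (with the title number as a block, added later), all 10 libraries and each library left out. Named list genes are the called members of smallest p, up to 4 a list, or the 1 of smallest p; Slc16a1, Slc22a12 and Pdzk1ip1 were added after their values were seen. Of 70 list symbols, all matched the tables.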

Additional observations from a re-analysis of the deposited data

Results flagged for a closer look

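Slc2a5 read 112 CPM in KO replicate 4, against 50.8 to 57.6 CPM in the other 3 KO libraries. The gap to the nearest library was 0.889 of the group's whole range, past Dixon's 95% critical value for 4 samples. Among 48 such comparisons of the transporters and their ratios it was the only one past that value, and chance marks about 1 group in 20.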

How the results depend on the processing

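DESeq2 called 3 transporters higher, adding Slc5a1 (log2 fold change 0.48) and Slc5a12 (0.43) to Slc2a2, where 1290 of all 15971 genes were called higher. Among titles with a leading E (2 against 2), 143 genes were called, 92 higher and 51 lower, with 0 transporters higher and Slc2a2 at 0.50 without a call. Among titles without it, 1723 genes were called, 924 higher and 799 lower. Of the transporters 2 were called higher there, Slc5a1 (0.60) and Slc5a10 (0.26), and 1 lower, Slc2a5 (−0.71), with Slc2a2 at 0.23 without a call. With each library left out in turn, 1005 to 1638 genes were called (fewest without KO replicate 1; also under the main count by over 1.5 times without KO replicate 2, at 1068, and WT replicate 3, at 1006). Of these, 610 to 916 were higher and 381 to 722 lower, the latter also lower by over 1.5 times without WT replicate 1, at 465. Transporters called higher numbered 0 to 1 and those called lower 0 to 1. Slc2a2 ran from 0.26 to 0.42, Slc5a1 from 0.29 to 0.62, Slc5a12 from 0.28 to 0.50 and Slc2a5 from −0.99 to −0.47. Of the other transporters, not called in these fits, Slc5a8 ran from −0.22 (without KO replicate 4) to −0.03. The log2 ratio difference ran from 0.36 to 0.59 for Slc2a2 to Slc2a1 and from 0.39 to 0.61 for Slc5a12 to Slc5a8. The exact permutation p-values there were those that full separation of the same 7 libraries gives. Slc34a1, at −0.00058 in the edgeR fit of all 8 libraries and never called, changed sign with no filter (0.0077), in DESeq2 (0.00016) and among titles with an E (0.081), and ran from −0.047 to 0.058 with a library left out. Fewer samples enter the subsets; beyond that the cause was not tested. RLE and upper-quartile scaling, limma-voom, thinning, the title form as a term, no filter and the fit of all 10 libraries left the calls of the 9 transporters as they were. Strain values kept their direction with another prior count and with RLE scaling, and ratios with 0.5 counts added. In the titles without an E, the closing numbers 2 and 3 occur in both genotypes, with no meaning given. With this number as a replicate block, added after seeing the data, 1935 genes were called, against 1723 among the same 4 libraries without it. The same 2 transporters were called higher, Slc5a1 (0.60) and Slc5a10 (0.26), and 1 lower, Slc2a5 (−0.70), with Slc2a2 at 0.22 without a call. Deviations of same-numbered libraries from their group means were nearly uncorrelated across genes (r = −0.027), so the block is given here only. KO libraries were all deeper than WT ones; after thinning to the smallest total the calls of the 9 transporters were as in the full counts.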
